A study of Mus musculus with 8 samples.

Results

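The genes described here carry the disposal of nitrogen in periportal liver: Cps1, Otc, Ass1, Asl and Arg1, which encode the 5 enzymes of the urea cycle; Nags and Slc25a15, which supply its cofactor and its shuttle; and Gls2, Hal and Sds, which release ammonia from glutamine, histidine and serine. The 10 genes were chosen by name, with their transcripts summed per gene, out of 35975 genes with a matched transcript, and all 10 were among the 12883 genes tested. None of them passed the test for a difference between mice infused with 4-hydroxyphenylacetic acid (4-HPAA) and mice infused with normal saline, and their log2 fold changes lay between -0.08 and 0.10. Single mice of a group lay further apart, and replicate 4 was the highest mouse of both groups for Ass1, Asl, Arg1, Gls2 and Sds.

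RNA was sequenced from the livers of C57BL/6 mice that, per the study's methods, were of the C57BL/6J substrain and 8 to 10 weeks old, had a catheter placed in the portal vein, and were housed singly after surgery. An osmotic pump delivered either normal saline alone (Normal Saline, 4 mice) or 4-HPAA dissolved in normal saline (4-HPAA, 4 mice) into the portal vein for 2 weeks, so both groups shared the surgery, the catheter and the saline. 4-HPAA is a phenolic acid that gut bacteria make from aromatic precursors, and the comparison asks how liver transcripts respond when it arrives by the route of intestinal absorption. The labels do not give the sex of each mouse, and each library is the whole liver tissue of 1 labelled replicate.

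The urea cycle turns ammonia, which is toxic to the brain, into urea for excretion by the kidney. Its first steps run in mitochondria and its later steps in the cytosol, and hepatocytes near the portal tract, which meet nitrogen-rich blood from the gut first, hold most of it. Hepatocytes around the central vein instead capture remaining ammonia as glutamine with glutamine synthetase, encoded by Glul, so that the periportal and pericentral genes mark opposite ends of the liver lobule.

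Promoters from the RefSeq table (GRCm38.p6, 250 bases before to 50 after the annotated start) were found for Otc, Ass1, Nags, Slc25a15 and Hal, 5 of the 10 genes, and for none of Cps1, Asl, Arg1, Gls2 and Sds. Otc and Hal are shown because their levels moved together from mouse to mouse, and Ass1 because it was the most abundant member per length and moved with a different set. All 3 windows are on the plus strand, at chrX:10252055-10252354 for Otc, chr10:93488518-93488817 for Hal and chr2:31470020-31470319 for Ass1, and capitals mark matches to any of 6 short motifs searched on both strands.
Otc: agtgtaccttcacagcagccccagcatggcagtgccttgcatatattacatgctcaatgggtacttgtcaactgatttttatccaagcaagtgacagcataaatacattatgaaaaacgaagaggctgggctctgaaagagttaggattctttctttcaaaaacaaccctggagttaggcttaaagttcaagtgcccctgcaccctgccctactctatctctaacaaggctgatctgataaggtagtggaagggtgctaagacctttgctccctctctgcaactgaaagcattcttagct
Hal: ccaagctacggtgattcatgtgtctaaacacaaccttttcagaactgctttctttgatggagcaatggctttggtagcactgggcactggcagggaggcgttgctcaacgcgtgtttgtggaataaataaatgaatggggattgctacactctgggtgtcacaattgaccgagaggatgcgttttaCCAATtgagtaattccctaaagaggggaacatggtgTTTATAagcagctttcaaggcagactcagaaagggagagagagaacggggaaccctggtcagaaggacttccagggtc
Ass1: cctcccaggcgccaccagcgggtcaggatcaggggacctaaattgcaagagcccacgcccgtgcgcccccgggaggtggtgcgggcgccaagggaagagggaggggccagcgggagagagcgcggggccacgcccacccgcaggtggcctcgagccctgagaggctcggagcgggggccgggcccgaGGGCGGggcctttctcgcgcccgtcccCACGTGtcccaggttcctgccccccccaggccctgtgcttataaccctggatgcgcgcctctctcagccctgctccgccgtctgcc
The motifs were the TATA box core TATAAA, the GC box GGGCGG, the box CCAAT bound by nuclear factor Y, the E box CACGTG, the cyclic AMP response core TGACG and the short glucocorticoid receptor motif TGTTCT, none of which overlapped another in these windows. The Otc window held none of them. The Hal window held CCAAT, also found in 37.4% of all 32851 promoters in the table, and TATAAA on the other strand, found in 13.6%. The Ass1 window held GGGCGG, found in 35.7%, and CACGTG, found in 7.15%. The windows also differed in base composition, with 74.0% G or C in Ass1 against 44.3% in Otc and 47.7% in Hal, where the median promoter had 52.7%. Ass1 held 27 CG pairs, Hal 7 and Otc 1. The RefSeq start was the GENCODE gene start for Otc and Hal and lay 63 bases from it for Ass1. These matches describe letters in a window and were not related to binding.

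Totals lay between 29559978 and 30673398 estimated counts per library in the Normal Saline group and between 29603111 and 30383038 in the 4-HPAA group. Albumin, the defining hepatocyte transcript, ranged from 73130 to 100791 CPM (normalized read counts relative to library size, scaled by TMM factors). Sums over 8 hemoglobin and red cell genes were 425 to 2782 CPM with Normal Saline, highest in replicate 2, and 333 to 914 with 4-HPAA, highest in replicate 4. Y-linked transcripts summed to 152 to 180 CPM in every library. Replicate 4 of each group stood apart in zonal genes, with Glul at 415 CPM against 837 to 965 in the other Normal Saline mice and at 512 against 809 to 841 in the other 4-HPAA mice. In edgeR's quasi-likelihood test across all genes with Benjamini-Hochberg adjustment, 0 genes passed (0% of those tested), 225 had an unadjusted p under 0.05, DESeq2 passed 2 and limma-voom 0. The 8 libraries are whole tissue, so fewer cells of a type and less RNA per cell cannot be told apart.

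The genes of the mitochondrial entry overlapped between the groups. Carbamoyl phosphate synthetase 1, which condenses ammonia and bicarbonate, is encoded by Cps1 (ENSMUSG00000025991, GRCm38 chr1:67123026-67231259). Cps1 measured 4714, 3898, 4402 and 4410 CPM in Normal Saline mice 1 to 4, and 4220, 4699, 4619 and 4538 CPM in 4-HPAA mice 1 to 4. The means, 4356 ± 338 and 4519 ± 210 (SD, n = 4 each), lay within a single SD of each other, and the groups overlapped. Its log2 fold change, 4-HPAA over Normal Saline here and throughout, was 0.05 (SE 0.10), with a 95% interval for the fold of 0.887 to 1.21. Nags makes N-acetylglutamate, the obligate activator of that enzyme. Its levels were 48.2, 41.7, 43.1 and 51.1 CPM with Normal Saline and 47.2, 46.6, 53.4 and 50.4 CPM with 4-HPAA. At 46.0 ± 4.39 against 49.4 ± 3.13 CPM it had the highest log2 fold change of the 10 genes, 0.10 (SE 0.09), and the groups overlapped.

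Ornithine transcarbamylase, encoded by Otc on the X chromosome (chrX:10252305-10321024), joins carbamoyl phosphate to ornithine. Otc was at 358, 385, 437 and 472 CPM with Normal Saline and at 466, 411, 386 and 415 CPM with 4-HPAA. Both the lowest and the highest mouse were in the Normal Saline group, and the log2 fold change was 0.02 (SE 0.11, fold interval 0.862 to 1.20). Slc25a15 encodes the carrier that exchanges ornithine and citrulline across the inner mitochondrial membrane. Its levels were 337.9, 244.6, 280.9 and 330.3 CPM with Normal Saline and 255.9, 274.2, 296.5 and 337.4 CPM with 4-HPAA, for a log2 fold change of -0.04 (SE 0.13). The 4-HPAA values lay wholly inside the Normal Saline range.

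The cytosolic steps varied more from mouse to mouse, and replicate 4 led both groups. Argininosuccinate synthetase (Ass1, chr2:31470207-31520672) brings in the second nitrogen from aspartate. Ass1 stood at 2675, 2457, 2380 and 4053 CPM with Normal Saline and at 2677, 2496, 2814 and 3474 CPM with 4-HPAA. Replicate 4 was the highest mouse of each group, the means were 2891 ± 785 and 2865 ± 426 CPM, and the log2 fold change was -0.01 (SE 0.18, fold interval 0.745 to 1.32). Argininosuccinate lyase (Asl) releases arginine, and measured 902, 763, 710 and 1081 CPM with Normal Saline and 750, 703, 828 and 979 CPM with 4-HPAA. Here too replicate 4 was highest in both groups, and Asl had the lowest log2 fold change of the 10 genes, -0.08 (SE 0.15). Arginase 1 (Arg1) splits arginine into urea and ornithine, and measured 1293, 1031, 1075 and 1529 CPM with Normal Saline and 1079, 1010, 1292 and 1555 CPM with 4-HPAA. The group means of Arg1, 1232 ± 229 and 1234 ± 245 CPM, were almost equal (log2 fold change 0.00, SE 0.17, fold interval 0.772 to 1.30), with replicate 4 again highest in each group.

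Of the ammonia-releasing enzymes, Gls2 and Sds held the widest spread of the 10 genes. Liver-type glutaminase (Gls2) measured 279, 291, 296 and 560 CPM with Normal Saline and 324, 331, 336 and 447 CPM with 4-HPAA. Within each group 3 mice lay close together and replicate 4 well above them, at means of 356 ± 136 and 360 ± 58.4 CPM and a log2 fold change of 0.01 (SE 0.22, fold interval 0.713 to 1.43). Without Normal Saline replicate 4 the log2 fold change of Gls2 was 0.32, and without both replicates 4, a choice made after seeing the data, it was 0.20. Both had an unadjusted p under 0.05 and an adjusted p of 1.00 in edgeR's test. Sds encodes serine dehydratase, which yields pyruvate and ammonia and feeds gluconeogenesis. Its levels were 495, 353, 352 and 594 CPM with Normal Saline and 443, 326, 346 and 640 CPM with 4-HPAA. Sds was the most variable member, with replicate 4 highest and replicate 1 next in each group, and its log2 fold change was -0.03 (SE 0.24, fold interval 0.676 to 1.42). Histidine ammonia-lyase (Hal), the first step of histidine breakdown, was at 262, 250, 326 and 415 CPM with Normal Saline and at 349, 304, 298 and 288 CPM with 4-HPAA. Replicate 4 was the highest Normal Saline mouse for Hal but the lowest 4-HPAA mouse, and the log2 fold change was -0.01 (SE 0.16).

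**Figure D1:**
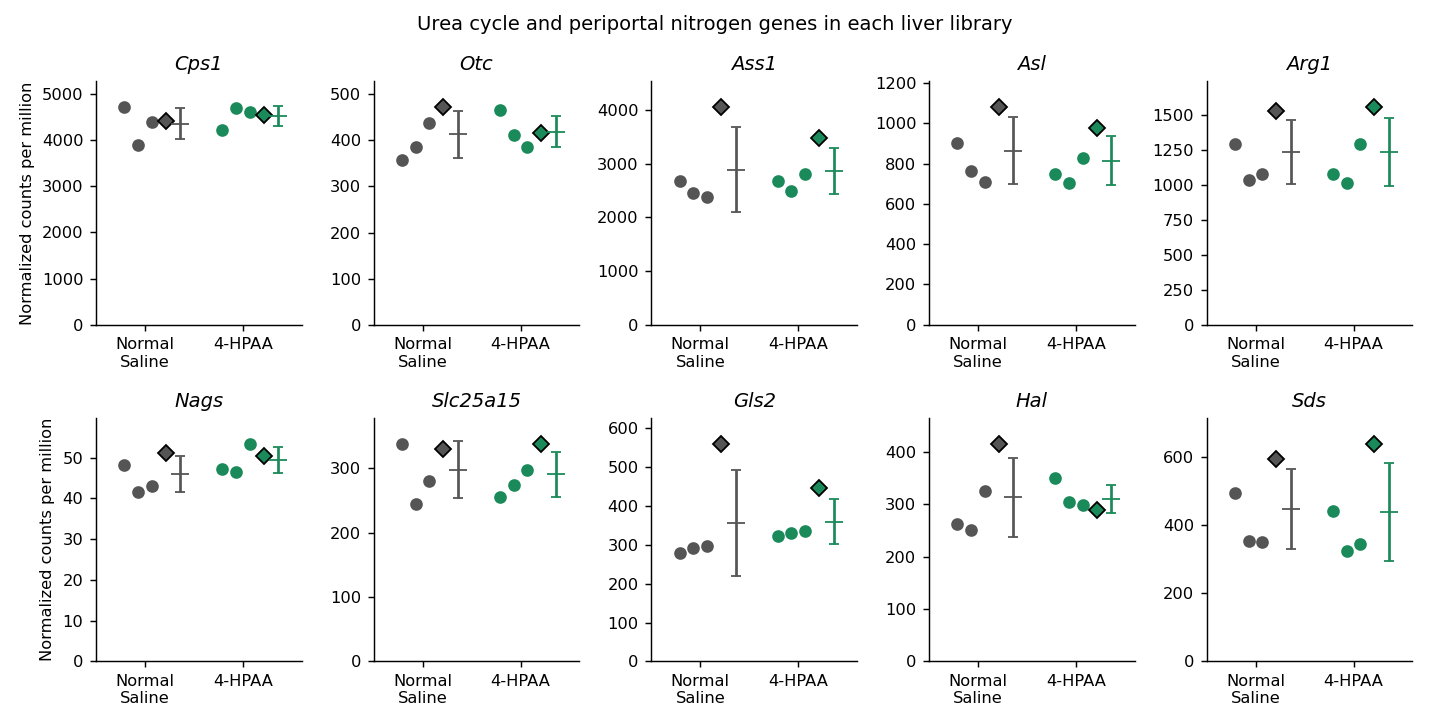
Normalized CPM (y axis, from 0) of the 10 genes in each of 8 liver libraries, with diamonds for replicate 4 and circles for replicates 1 to 3. The bars to the right of each group are the mean and SD of 4 mice, and the groups overlap for every gene, while replicate 4 is highest in both groups for Ass1, Asl, Arg1, Gls2 and Sds.

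Over the list, 5 genes had a positive and 5 a negative log2 fold change, where 50.4% of all genes tested were positive. The median log2 fold change was -0.01 and the median absolute value 0.03, beside 0.07 over all genes tested. Of the 10 genes, 0 passed edgeR's adjusted threshold and 0 had an unadjusted p under 0.05, where 1.75% of all genes did. DESeq2 and limma-voom also passed 0 of the 10. None of the 10 had groups that did not overlap, against a background of 1.2%. The intervals bound what 4 mice per group could miss: the 95% intervals of the fold ran from 0.887 to 1.21 for Cps1 and from 0.939 to 1.23 for Nags, and from 0.676 to 1.42 for Sds and from 0.713 to 1.43 for Gls2. With the leading transcript of each gene alone, the log2 fold change was 0.29 for Gls2 and 0.24 for Nags. The median log2 fold change was -0.20 when the mouse of each group with the most hemoglobin transcripts, Normal Saline replicate 2 and 4-HPAA replicate 4, was left out. It was -0.08 without the first of these mice alone and -0.12 without the second alone. The first was the lowest Normal Saline mouse for 5 of the 10 genes and the second the highest 4-HPAA mouse for 6. The part of blood in the shift was not tested.

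**Figure D2:**
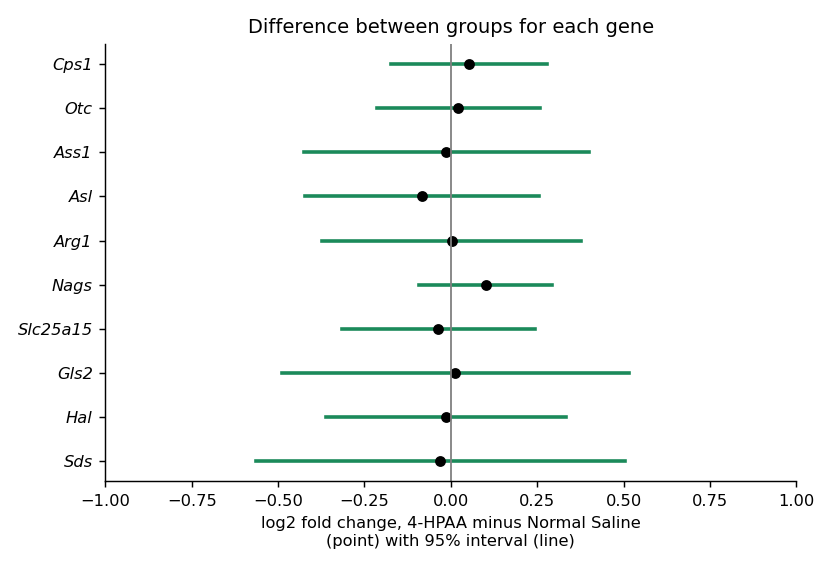
Log2 fold change of each gene, 4-HPAA minus Normal Saline (points), with its 95% interval from edgeR (lines). All 10 intervals include 0, and they are narrowest for Nags, Cps1 and Otc and widest for Sds and Gls2.

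The members did not vary equally. The within-group SD of log2 CPM was 0.09 for Cps1, 0.12 for Nags and 0.15 for Otc, and 0.27 for Arg1, 0.29 for Ass1, 0.37 for Gls2 and 0.41 for Sds. Among the 2557 genes at least as abundant as Nags, 21.9% had a smaller SD than Cps1, 36.9% than Nags and 55.1% than Otc, while 90.6% had a smaller SD than Ass1, 94.5% than Gls2 and 95.9% than Sds. Asl (83.9%), Hal (85.9%) and Arg1 (88.5%) lay in the upper part of this range as well, and the mitochondrial carrier gene Slc25a15 at 73.7%. A high replicate 4 is itself part of the SD of the genes that have one.

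To compare the genes with each other, counts were divided by the lengths of their annotated transcripts and given as TPM, a level per length relative to all transcripts. Ass1 was the most abundant at a mean of 2805 TPM over the 8 libraries (range 2349 to 3903), followed by Arg1 at 1385, Cps1 at 1306, Asl at 921 and Sds at 680. Otc (291), Gls2 (280), Hal (163), Slc25a15 (139) and Nags (39.6 TPM, range 33.8 to 44.9) completed the order. In 6 of the 9 steps down this order the upper gene was higher in 8 of 8 libraries (exact sign-flip permutation test, two-sided, p = 0.00781, adjusted p = 0.0117). The step from Asl to Sds, 1 of these, turned round when only the leading transcript of each gene was used. The order was taken from the same 8 libraries that were tested. The p describes repeatability over libraries and not errors in length or annotation. Arg1 and Cps1 were not distinguished (higher in 5 of 8 libraries, exact permutation test, adjusted p = 0.406), nor were Otc and Gls2 (6 of 8, adjusted p = 0.406) or Hal and Slc25a15 (6 of 8, adjusted p = 0.10). With lengths shortened by 200 bases, 8 of the 9 steps passed, so these ties depend in part on the length used. Ass1 exceeded Asl, the next enzyme of the pathway, 2.56-fold to 3.35-fold in TPM. Together the 10 genes held 0.967% to 1.32% of the counts of a library, and Cps1, a long transcript, made up 32.7% to 44.3% of these, with its lowest shares in the replicates 4 of both groups.

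**Figure D3:**
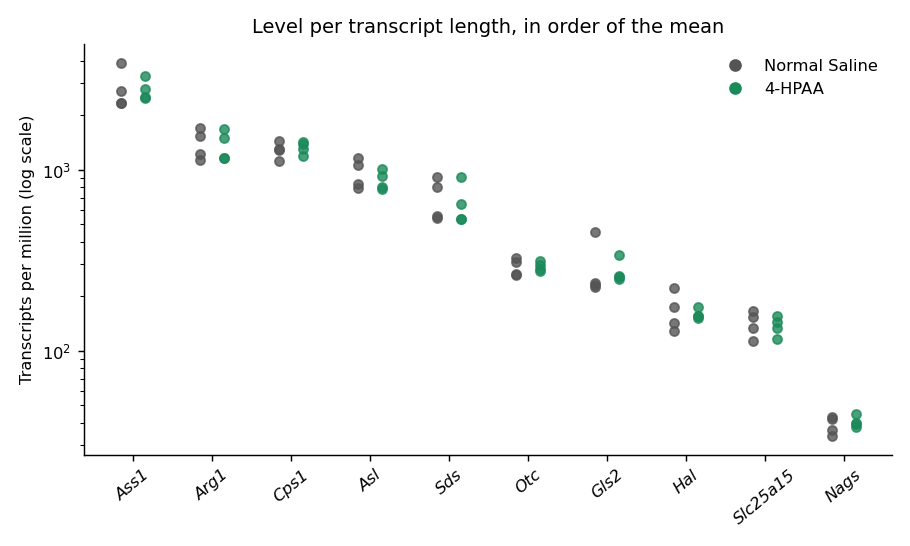
Level per transcript length (TPM, log y axis) of the 10 genes in each library, from the highest mean to the lowest. Ass1 is at 2349 to 3903 TPM and Nags at 33.8 to 44.9, and the points of the Normal Saline and 4-HPAA mice overlap at each gene.

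The members were also set beside partner genes. Sds was at 532 to 913 TPM, 26.0 to 48.2 times its paralog Sdsl. Cps1 exceeded Cad, which makes carbamoyl phosphate for pyrimidines, 325-fold to 540-fold in TPM. Arg2, the mitochondrial arginase, stood below the filter at 0.0321 to 0.300 CPM. Slc25a13, the aspartate-glutamate carrier that supplies Ass1, averaged 244 ± 10.9 CPM in the Normal Saline mice and 266 ± 12.5 in the 4-HPAA mice (SD, n = 4 each), with a log2 fold change of 0.12 (SE 0.07, edgeR adjusted p = 1.00), and the ranges overlapped. Oat, which turns ornithine into glutamate, was lowest in Normal Saline replicate 1 at 345 CPM and lay between 443 and 630 in the other mice (log2 fold change 0.02, SE 0.18).

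In 8 lists of neighboring pathways, 0 genes passed edgeR's adjusted threshold. Of 21 tested genes of urea cycle supply and side reactions, 12 had a positive and 9 a negative log2 fold change, from 0.27 for Aldh18a1 to -0.41 for Pycr1, and the median was 0.01. Of 17 genes of glutamine and ammonia handling, 5 were positive and 12 negative, from 0.11 for Slc38a1 to -0.63 for the amino acid transporter Slc1a4 (SE 0.27, edgeR unadjusted p = 0.0384, adjusted p = 1.00). The 7 histidine genes split into 3 positive and 4 negative, from 0.03 for Cndp2 to -0.16 for Carns1, and the 17 serine and glycine genes into 8 and 9, from 0.09 for Glyctk to -0.11 for Agxt. Among 18 other periportal genes 12 were positive and 6 negative (Hsd17b6 0.45, SE 0.26; G6pc, glucose-6-phosphatase, -0.33, SE 0.23). Among 19 pericentral genes 6 were positive and 13 negative (Axin2 0.34; Cyp7a1, the rate-limiting enzyme of bile acid synthesis, -0.60, SE 0.25, edgeR unadjusted p = 0.0383, adjusted p = 1.00). The 26 fasting and hormone response genes divided into 13 and 13 (Fgf21 0.52, SE 0.77; Sgk1 -0.35, SE 0.17) and the 17 clock genes into 10 and 7 (Bhlhe41 0.27; Per1 -0.20).

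The differences between mice followed a common profile, described after the values were seen. Replicate 4 was the highest mouse in both groups for 5 of the 10 members, Ass1, Asl, Arg1, Gls2 and Sds, where 12.3% of all genes tested showed this. It was the lowest in both groups for 0 of the 10, where 14.9% of all genes did. Normal Saline replicate 4 alone was highest for 8 members and 4-HPAA replicate 4 for 6. In the same libraries 11 of 19 pericentral genes were lowest in both groups and 0 of 19 highest. Cyp2e1, a pericentral cytochrome P450, was at 4420 CPM in Normal Saline replicate 4 against 6859 to 7007 in the other mice of its group, and at 5420 against 6324 to 7233 with 4-HPAA. Slc1a2, the pericentral glutamate transporter, was at 162 against 211 to 278 CPM and at 164 against 194 to 262 CPM. The ratio of Gls2 to Glul per length was 0.365 to 0.514 in the 6 other mice, 1.79 in Normal Saline replicate 4 and 1.11 in 4-HPAA replicate 4.

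The other lists showed the profile to different extents. Of 17 serine and glycine genes 7 were highest in replicate 4 of both groups, among them Sdsl, Agxt, Gldc and Gnmt, and 1 was lowest. Of 18 other periportal genes 6 were highest, among them Fbp1 and Gpt, and 2, Ctsc and Serpina1c, were lowest. Of 21 genes of urea cycle supply 4 were highest and 2 lowest, of 17 glutamine and ammonia genes 4 were highest and 6 lowest, of 7 histidine genes 1 was highest and 0 lowest, and of 10 hepatocyte genes 2 were highest and 2 lowest. Markers of 3 other cell types differed in extent: 8 of 9 Kupffer cell and leukocyte genes, 7 of 8 endothelial genes and 4 of 8 stellate genes were lowest in both groups. The stellate gene Acta2 was instead highest in Normal Saline replicate 4, at 1.58 CPM, and the endothelial gene Lyve1 highest in 4-HPAA replicate 4, at 15.5. The summed levels of these 3 lists were 92.0 to 289 CPM (Kupffer cells and leukocytes), 128 to 190 (endothelium) and 99.8 to 197 (stellate cells) with Normal Saline, with replicate 4 lowest in each, and 85.2 to 243, 119 to 221 and 111 to 189 with 4-HPAA, again with replicate 4 lowest in each. Every one of these markers had counts in every library. Cholangiocyte markers differed from these, with 0 of 5 tested genes lowest in both groups and a summed level of 24.6 CPM in Normal Saline replicate 4, the lowest of its group, and 39.2 in 4-HPAA replicate 4, the highest of its group. Among the 26 fasting and hormone genes 1 was highest and 1 lowest in replicate 4 of both groups, and among the 17 clock genes 0 and 1. The part of the other cell types in the levels of the members was not tested. Without both replicates 4 the log2 fold changes were 0.09 for Ass1, -0.06 for Asl, -0.01 for Arg1 and -0.11 for Sds, and the median over the 10 genes was 0.07.

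**Figure D4:**
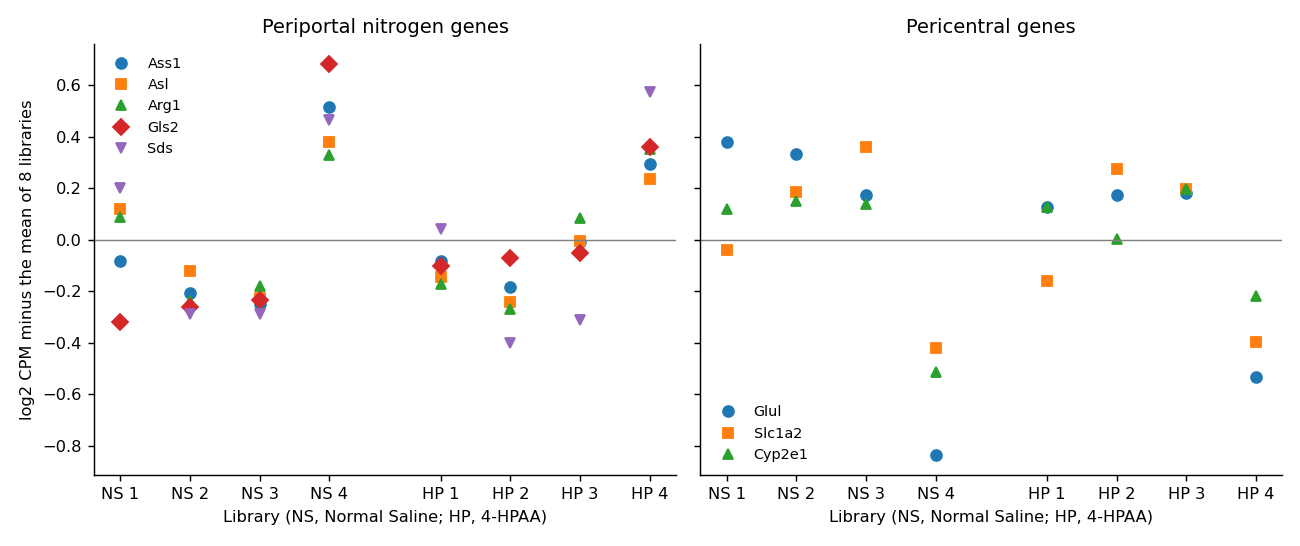
Log2 CPM of each library minus the mean of the 8 libraries for 5 periportal nitrogen genes (left) and 3 pericentral genes (right), with 1 symbol per gene. Replicate 4 of each group lies above 0 for all 5 on the left, up to 0.69 for Gls2 with Normal Saline, and below 0 for all 3 on the right, down to -0.84 for Glul. The 5 are the members highest in replicate 4 of both groups, so their place there follows from that choice. Cyp2e1 and Slc1a2 were also chosen after their values were seen. Of the members not shown, Cps1 was at -0.007 in Normal Saline replicate 4 and Hal at -0.097 in 4-HPAA replicate 4. Nags and Slc25a15 lay above 0 in replicate 4 of both groups, and Otc was at 0.186 with Normal Saline but at 0.001 with 4-HPAA.

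Pairwise correlations of log2 CPM over the 8 libraries were computed for all 45 pairs of members, of which 43 were positive and 2 negative, with a median Pearson r of 0.58. By exact permutation over all pairings of the 8 libraries, 7 pairs passed after adjustment by Pearson's r and 0 by Spearman's rho. Asl and Arg1 were the closest (r = 0.951, exact permutation p = 0.00117, adjusted p = 0.0279; rho = 0.905, p = 0.00456, adjusted p = 0.103), and r was 0.894 without the 2 libraries farthest from the median of Asl. Ass1 and Gls2 had the same r of 0.951 (exact permutation p = 0.00392, adjusted p = 0.0353; rho = 0.786, p = 0.0279, adjusted p = 0.14), but without the 2 farthest libraries it was 0.382, so that this relation rested on them. The 2 farthest libraries were replicate 4 of each group, for Ass1 as for Asl and Arg1. Ass1 with Asl (r = 0.923), Ass1 with Arg1 (0.898), Arg1 with Slc25a15 (0.878) and Asl with Sds (0.875) were the others of this set, at 0.692, 0.765, 0.816 and 0.651 without the 2 farthest. Their exact permutation p for r were 0.00124, 0.00243, 0.00771 and 0.00543 (adjusted p 0.0279, 0.0296, 0.0496 and 0.0407), and their rho were 0.786, 0.81, 0.81 and 0.81 (exact permutation p 0.0279 for the first and 0.0218 for the others, adjusted p 0.14). With both replicates 4 left out, which leaves 6 mice, 0 pairs passed. With 6 mice a single pair cannot pass exact permutation with adjustment over 45 pairs, whatever its r. This 0 therefore says nothing on any 1 pair alone.

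Otc and Hal formed a pair of their own. Their r was 0.893 (exact permutation p = 0.00263, adjusted p = 0.0296; rho = 0.905, p = 0.00456, adjusted p = 0.103), 0.853 without the 2 farthest libraries and 0.889 without both replicates 4. In both genes Normal Saline replicate 4 was the highest and 4-HPAA replicate 1 the next. Otc with Asl, Arg1 and Slc25a15 had r of 0.09, 0.08 and -0.12, and Cps1 with Otc -0.23. Whether these r differ from those among the cytosolic steps was not tested.

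**Figure D5:**
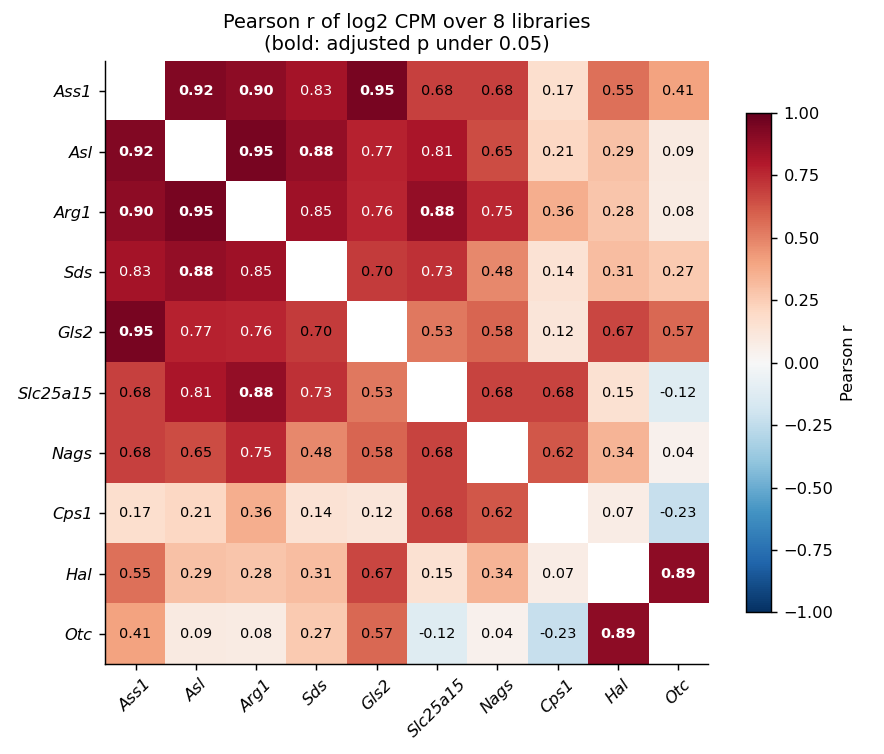
Pearson r of log2 CPM over 8 libraries for each pair of the 10 genes, from -1 (blue) to 1 (red), with the 7 pairs past the adjusted threshold in bold. Ass1, Asl, Arg1 and Sds have r of 0.83 or more with each other, Otc and Hal a pair at 0.89, and Cps1 stays at 0.36 or less with all but Slc25a15 and Nags.

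For Sds, the member with the largest spread, the genes outside the list with the most similar profile over the 8 libraries were Zswim7 (r = 0.992), Vdac2 (0.984), Txn2 (0.978), Atp5o (0.977) and Fcamr (0.973), given as a description chosen from 12883 genes. Vdac2, a mitochondrial outer membrane channel, measured 85.6, 73.1, 71.0 and 86.8 CPM with Normal Saline and 79.3, 69.5, 72.0 and 90.2 CPM with 4-HPAA. It followed Sds in which mice were high, replicates 1 and 4, over a far narrower range. Txn2, the mitochondrial thioredoxin, did the same at 109 to 142 CPM. Fcamr was at only 0.388 to 0.756 CPM.

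The transcripts of each gene were compared next. The 10 genes list 42 transcripts, of which 36 were tested and 0 passed edgeR's adjusted threshold; 4 had an unadjusted p under 0.05, where 3.83% of the 25533 transcripts tested did. Cps1 has 1 transcript, and a single transcript carried 96.9% to 97.6% of the counts of Otc, 99.3% to 99.7% of Ass1, 98.4% to 99.4% of Arg1 and 95.6% to 97.4% of Slc25a15. Gls2 was the most divided, with its coding transcript Gls2-201 at 58.8%, 59.0%, 57.0% and 50.5% of its counts with Normal Saline and at 55.7%, 69.8%, 79.0% and 64.4% with 4-HPAA. Its retained-intron transcript Gls2-207 took 14.2% to 31.2%, and the decay-prone Gls2-211 5.0% to 20.7%. The share of Gls2-201 was higher with 4-HPAA in the mean, 67.2% ± 9.79 against 56.3% ± 4.00 (SD, n = 4 each), but the groups overlapped (exact permutation test, two-sided, p = 0.114, adjusted p = 0.257). Retained-intron transcripts of all genes together held 2.26%, 2.23%, 2.32% and 2.37% of matched counts in Normal Saline mice 1 to 4. In 4-HPAA mice 1 to 4 they held 2.3%, 2.08%, 2.11% and 1.94%. The part of this library-wide difference in the shares of single genes was not tested. Hal likewise gave 18.1% to 27.4% of its counts to a decay-prone transcript, and Nags-201 held 49.1% to 67.0% of Nags.

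Of the 19 transcripts with at least 5% of their gene's counts, 0 passed by exact permutation and 1 had an unadjusted p under 0.05. It was Nags-202, a transcript without a listed coding frame, at 10.8%, 9.53%, 8.82% and 9.45% of Nags counts with Normal Saline and 11%, 12.0%, 11.1% and 11.3% with 4-HPAA. Its groups did not overlap (exact permutation test, two-sided, p = 0.0286, adjusted p = 0.31), and 0.0286 is the smallest p that 4 mice against 4 allow. At that floor a single transcript cannot pass adjustment over 19 transcripts. Nor can a single leading transcript over the 9 genes with several transcripts. The 0 passing therefore says nothing on a shift in 1 transcript alone. Estimated counts split reads among overlapping transcripts, so these shares carry the uncertainty of that split.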

How the data were processed

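Liver RNA libraries of 8 mice, 4 per group by the labels, were analysed. The authors checked reads with FastQC 0.11.9, joined the flow cells, ran kallisto and deposited estimated counts per transcript, neither normalized nor pooled over mice. The methods name GRCm38.p6 annotations from NCBI, whereas the transcripts carry Ensembl identifiers. Gene totals, rounded, were formed with GENCODE M21 (GRCm38); 2686 of 119414 transcripts, holding 0.703% to 1.06% of counts, matched no gene. For the 10 members, with at least 1217 counts in every library, the spread between mice, not counting error, limits precision. Counting error weighs more for genes with few counts, such as Carns1 at 10 to 20 per library.

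The filter required 10 counts per library, and edgeR 4.0.16 was the test (R 4.3.3; TMM, quasi-likelihood F test, Benjamini-Hochberg adjustment, threshold 0.05). SE is the log2 fold change over the square root of F. Correlations used log2 CPM with a prior count of 2. TPM were computed from annotated lengths. Procedures were tested on simulated data. Also run were DESeq2 1.42.0, voom of limma 3.58.1, other scalings and filters, left-out libraries, a replicate block and leading transcripts.

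The members and gene lists were chosen with earlier results of these data known. Named are all members, Glul, Oat, Slc25a13, Arg2 and Sdsl, the highest and lowest log2 fold change per list, and the 5 genes most like the most variable member; other genes were chosen after their values were seen. Some genes of the lists are not reported by name here.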

Additional observations from a re-analysis of the deposited data

Results flagged for a closer look

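In 62 groups of 4 mice, the highest or lowest mouse was checked for a gap to its nearest neighbor beyond Dixon's 95% critical value, as a part of the group's range. Chance alone gives about 1 in 20 groups, or 3.1, and 5 met it. Gls2 was at 560 CPM in Normal Saline replicate 4, against 279 to 296 in the other 3 mice, and at 447 CPM in 4-HPAA replicate 4, against 324 to 336. Glul was at 512 CPM in the same 4-HPAA mouse, against 809 to 841. G6pc was at 411 CPM in Normal Saline replicate 4, against 626 to 643. Cyp7a1 was at 423 CPM in Normal Saline replicate 2, against 277 to 296. The causes were not tested.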

How the results depend on the processing

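Over 17 alternatives and 10 genes, 170 log2 fold changes were computed. In these, 0 passed the adjusted threshold, 2 had an unadjusted p under 0.05 (both Gls2) and 42 changed direction from a value near 0. Changes of direction were Arg1 -0.0047 with total counts only; Ass1 0.0106, Arg1 -0.0003 and Hal 0.0116 with limma-voom; Hal 0.0424 and Sds 0.0518 with the leading transcript only, which also moved Gls2 to 0.29 and Nags to 0.24; Ass1 0.087, Arg1 -0.0093 and Hal 0.1841 without both replicates 4 (added after seeing the data); and Cps1 -0.0073, Otc -0.0142, Arg1 -0.2142 and Gls2 -0.2052, with a median of -0.2023, without the mouse of each group richest in hemoglobin transcripts. Leaving out 1 mouse at a time gave 0.0019 to 0.0931 for Cps1, -0.0409 to 0.0911 for Otc, -0.1262 to 0.1942 for Ass1, -0.1911 to 0.0416 for Asl, -0.1352 to 0.123 for Arg1, 0.0558 to 0.1551 for Nags, -0.1216 to 0.0287 for Slc25a15, -0.1163 to 0.3178 for Gls2, -0.1111 to 0.1512 for Hal and -0.2779 to 0.1342 for Sds. Over all genes DESeq2 passed 2, and leaving out 1 mouse passed 0 to 1, the 1 without 4-HPAA replicate 1. The 7 correlated pairs became 0 without the 2 farthest libraries, 0 without both replicates 4 and 0 to 6 without 1 mouse, with 0 without Normal Saline replicates 3 or 4 or 4-HPAA replicates 1, 2 or 4. For each of these pairs but Otc with Hal, the 2 farthest libraries were both replicates 4, so these are not separate checks. Each of the 2 choices leaves 6 mice, too few for a single pair to pass adjustment over 45 pairs by exact permutation. The order of levels kept its sequence without any 1 mouse, but Gls2 and Otc changed places with lengths shortened by 200 bases, and Sds and Asl and also Hal and Slc25a15 with leading transcripts only. The causes were not tested.

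Nothing in the sources used here says that same-numbered mice shared a batch or day. Their deviations from group means correlated at 0.04 to 0.48 (mean 0.239), with 3 of 4 above 0.1. Other pairs had a mean of -0.078, but centering within groups largely fixes this value from the first mean, so it is no separate comparison. In each group 2 of 4 mice correlated best with their own number. The number was not taken as a pairing. The fit with a replicate block passed 0 genes, and 0 of the 10, with 336 unadjusted p under 0.05. In it Ass1 was at 0.0108, Arg1 at -0.0004 and Hal at 0.0124.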
